A study of Mus musculus with 12 samples.

Results

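Kinesins are motor proteins that walk along microtubules or take them apart. The members described here are the genes whose symbol begins with Kif and a digit, together with Kifc2 and Kifc3, each taken from a probe set that carries 1 gene symbol. Where a gene had more than 1 such probe set, the one with the highest mean over the 12 arrays was used. This gave 40 kinesin genes of 19938 genes on the array, and 29 of the 40 passed the filter on dim genes described below. Kifc1, a minus-end-directed spindle motor, shares its probe set with another symbol and is therefore not a member. Of the 40, 10 are mitotic kinesins by the list used (Kif2c, Kif4, Kif11, Kif14, Kif15, Kif18a, Kif20a, Kif20b, Kif22 and Kif23), and the other 30 are called other kinesins.

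The arrays measured RNA from germinal centre (GC) B cells, the antigen-driven B cells that divide, mutate their receptors and are selected in lymphoid organs. SwHEL B cells, which carry an engineered receptor for hen egg lysozyme and the CD45.1 marker, were transferred to female C57BL/6J mice (CD45.2), which were then immunized with sheep red blood cells carrying HEL3x, a lysozyme variant. Donor GC B cells from the spleen, gated as CD45.1+, CD45.2-, IgG1+ and CD38 low, were split by zone and by affinity, and this transfer, immunization and gate are shared by all groups. The 4 groups, with 3 arrays each, were light zone (LZ) cells of high affinity (LZ_high), LZ cells of low affinity (LZ_low), dark zone (DZ) cells of high affinity (DZ_high) and DZ cells of low affinity (DZ_low). LZ cells were gated as CD86 high and CXCR4 low, and DZ cells as CXCR4 high and CD86 low. The gate for affinity is not given in the labels. They also do not tie the arrays to individual mice, so a p-value here reflects only the spread among these arrays, which could be technical. Each group has 1 array of each of 3 matched sets, defined by a date-like suffix that the sample descriptions share.

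In a dividing cell, mitotic kinesins build the bipolar spindle, move and align the chromosomes, and then organize the central spindle where the cell is cut in 2. Most other kinesins carry vesicles, organelles or ciliary parts along microtubules, and some, such as Kif18b and Kif2a, also act in mitosis. In the germinal centre, the dark zone is known as the site of most cell division, and the light zone as the site where B cells are selected by antigen and T cell help.

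Values are log2 expression values per probe set, and a difference of 1 is a doubling. A gene was tested where at least 3 of the 12 arrays reached the median of their own array, and it is said to rise or fall where limma's adjusted p was under 0.05 over all 11206 genes tested. All 10 mitotic kinesins passed the filter, and so did 19 of the 30 other kinesins. The 11 that did not were Kif1a, Kif1b, Kif2b, Kif4-ps, Kif5a, Kif5c, Kif13a, Kif17, Kif21a, Kif26b and Kif27. Kif4-ps is a transcribed pseudogene whose sequence may resemble that of Kif4. The array medians ranged from 5.57 to 5.72, and 7 of 7 GC B cell markers with a probe set passed the filter. Of the markers of other cells, 2 of 6 T cell, 3 of 8 macrophage, 6 of 8 granulocyte, 4 of 6 plasma cell and 2 of 2 erythroid genes passed. The mean of the 6 T cell markers ranged from 4.76 to 5.23 in LZ_high, 4.98 to 6.23 in LZ_low, 5.04 to 5.18 in DZ_high and 4.91 to 5.81 in DZ_low arrays. The mean of the 8 granulocyte markers ranged from 5.28 to 6.83 in LZ_high, 5.41 to 6.77 in LZ_low, 5.34 to 7.01 in DZ_high and 5.44 to 6.41 in DZ_low arrays. The mean of the 6 plasma cell markers ranged from 6.54 to 6.99 in LZ_high, 6.44 to 6.69 in LZ_low, 6.95 to 7.14 in DZ_high and 6.50 to 6.78 in DZ_low arrays. Of the 4 plasma cell genes tested, Jchain, which encodes the joining chain of secreted antibodies, fell by 0.97 in LZ cells (limma adjusted p = 0.0427, and 0.00753 with the replicate block), a call that held in 2 of the 12 fits leaving out 1 array (without LZ_high replicate 3 or LZ_low replicate 3). The 4 did not all point the same way: 3 had a zone difference below 0 and 1 above 0. The highest was 0.74, with an unadjusted p under 0.05 by limma. The part of these cell types in the results below was not tested. In sorted pools such as these, fewer dividing cells and less RNA per cell cannot be told apart.

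The first comparison set LZ against DZ cells, averaged over both affinities. Kif20a, a motor of the central spindle that brings the chromosomal passenger complex there for cytokinesis, was the only kinesin that fell in LZ cells. Its values were 8.04, 8.21 and 7.82 in LZ_high arrays and 7.44, 7.57 and 7.40 in LZ_low arrays, against 8.40, 8.66 and 8.47 in DZ_high arrays and 8.57, 8.26 and 8.56 in DZ_low arrays. Every LZ array lay below every DZ array, and the LZ_low arrays were the lowest of all. The difference was -0.74 ± 0.11 (log2, SE, n = 6 arrays per zone; limma adjusted p = 0.0213). That is 1 of 29 tested kinesins, where 0.419% of all genes tested were called in either direction and 0.187% were called lower. Complete separation with LZ below DZ, which Kif20a showed alone among the 29, occurred in 0.455% of all genes. The call was lost without matched set 3 (-0.66, adjusted p = 0.0615) and in 6 of the 12 fits that each left out 1 array, with an adjusted p of 0.0501 to 0.0749. Those fits left out LZ_high replicate 1, LZ_low replicate 1 or 2, DZ_high replicate 2, or DZ_low replicate 1 or 3, and the difference stayed between -0.79 and -0.69 over the 12.

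**Figure D1:**
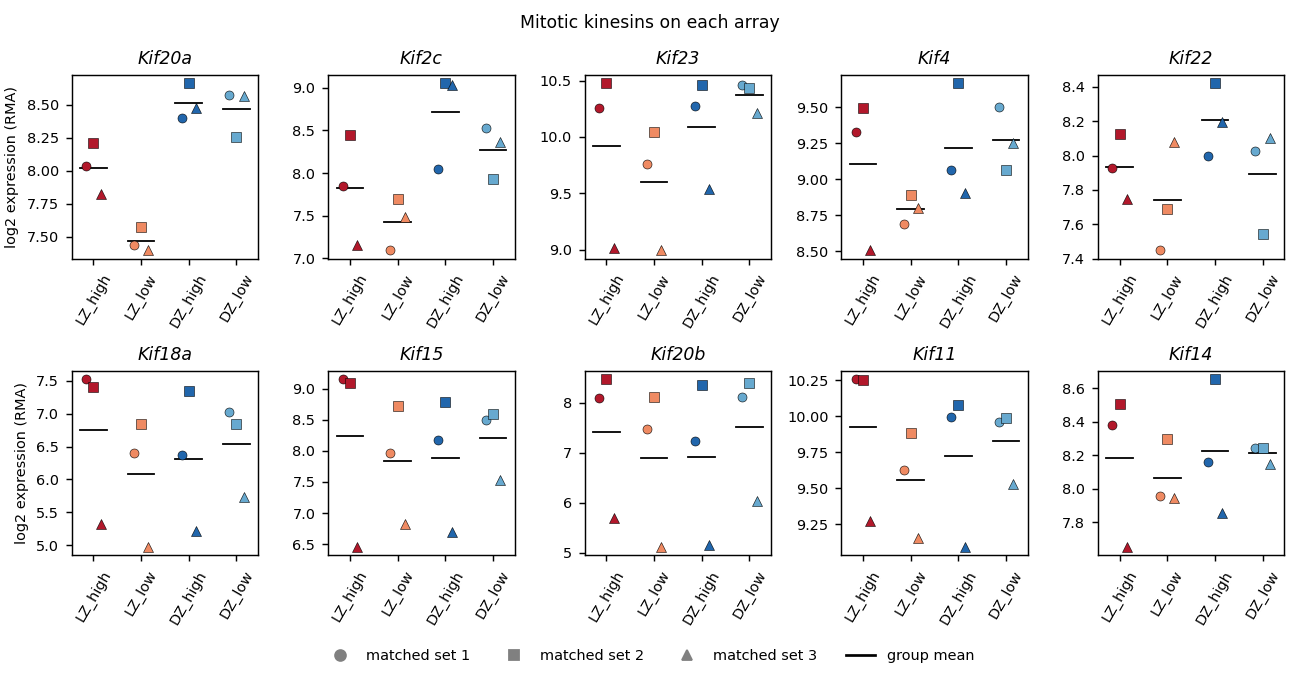
Log2 expression of the 10 mitotic kinesins on each array, 1 panel per gene with its own vertical axis, for LZ_high, LZ_low, DZ_high and DZ_low. Symbols mark matched sets 1 to 3 and lines the means of 3 arrays; Kif20a separates the zones completely, while Kif15, Kif18a and Kif20b have all 4 arrays of matched set 3 below the other 8.

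Kif2c, which removes tubulin from microtubule ends at centromeres and so frees wrongly attached chromosomes, had a zone difference of similar size with more spread. Its values were 7.85, 8.45 and 7.16 in LZ_high and 7.09, 7.70 and 7.48 in LZ_low arrays, against 8.05, 9.06 and 9.04 in DZ_high and 8.53, 7.93 and 8.36 in DZ_low arrays. Each LZ array lay below the DZ array of its own set and affinity, but the ranges of the zones overlapped through LZ_high replicate 2. The difference, -0.87 ± 0.25 (SE, n = 6 arrays per zone), did not pass (limma adjusted p = 0.259). Kif20a, Kif2c and Kif18b were lower in LZ in 6 of 6 matched pairs, as were 3.74% of all genes. Kif18b, which counts here among the other kinesins although it is known to limit the length of astral microtubules in mitosis, differed by -0.37 ± 0.12 (limma adjusted p = 0.356, and 0.0240 with array weights).

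Kif23, which forms the centralspindlin complex of the central spindle with the product of Racgap1, differed by -0.47 ± 0.28. It was 10.26, 10.48 and 9.01 in LZ_high and 9.76, 10.05 and 8.99 in LZ_low arrays, against 10.27, 10.46 and 9.54 in DZ_high and 10.46, 10.43 and 10.21 in DZ_low arrays. The lowest DZ array was that of DZ_high in set 3, which lay below 4 of the 6 LZ arrays. The chromosome-binding kinesins Kif4 and Kif22, which act on chromosome arms and, for Kif4, on the anaphase midzone, differed by -0.29 ± 0.19 and -0.21 ± 0.15. Kif14, which binds the midzone protein encoded by Prc1 and acts in cytokinesis, differed by -0.09 ± 0.18. None of these 4 passed by limma (adjusted p = 0.901 to 0.999).

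The remaining mitotic kinesins, Kif11, Kif15, Kif18a and Kif20b, had means close to each other in the 2 zones. Kif11, which pushes the spindle poles apart, differed by -0.03 ± 0.24, and Kif15, which can support it in that role, by -0.01 ± 0.54. Kif18a, which damps the movement of aligned chromosomes, differed by -0.01 ± 0.50, and Kif20b, which acts late in cytokinesis, by -0.05 ± 0.74. The standard errors of Kif15, Kif18a and Kif20b include the differences between matched sets. With matched set as a block they were 0.22, 0.18 and 0.13, and each difference was within 1 standard error of 0 (limma adjusted p = 0.995, 0.995 and 0.955).

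As lists, 10 of 10 tested mitotic kinesins and 14 of 19 tested other kinesins had a zone difference below 0, where 49% of all genes lay above 0. The median was -0.15 for the mitotic and -0.12 for the other kinesins, and -0.0038 for all genes. The mitotic median was -0.34 without DZ_high replicate 3, -0.05 without LZ_high replicate 3 and -0.07 without DZ_high replicate 2. By the mean of both affinities, 6 of the 10 mitotic and 7 of the 19 other kinesins were lower in LZ in 3 of 3 matched sets, as were 14.8% of all genes. At an unadjusted p under 0.05, 2 mitotic kinesins (Kif20a and Kif2c) and 1 other kinesin (Kif18b) were lower, where 7.06% of all genes passed in either direction.

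**Figure D2:**
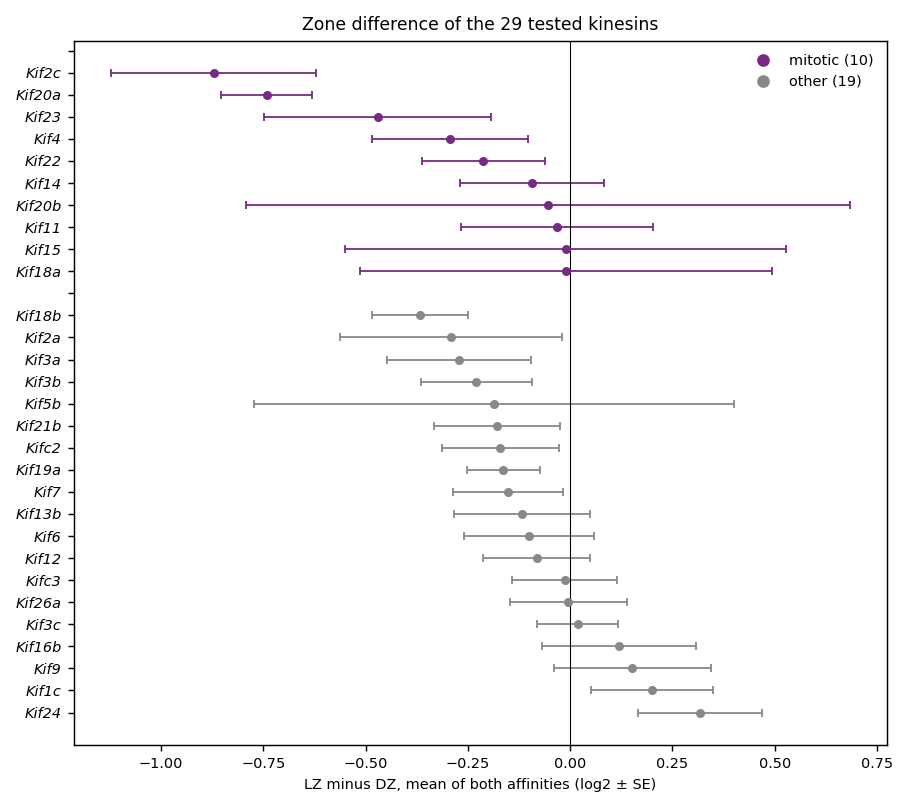
LZ minus DZ difference (log2, mean of both affinities) of the 29 tested kinesins; points are limma estimates and bars their standard errors, with mitotic kinesins above and other kinesins below. All 10 mitotic estimates lie left of 0, from -0.87 for Kif2c to -0.01 for Kif18a, and the other kinesins run from -0.37 for Kif18b to 0.32 for Kif24.

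None of the 19 other kinesins passed in the zone comparison. The highest difference was that of Kif24, a centriole protein that restrains cilia formation, at 0.32 ± 0.15 (limma adjusted p = 0.751). It was 7.56, 7.17 and 7.84 in LZ_high and 7.04, 6.86 and 7.49 in LZ_low arrays, against 6.94, 6.85 and 7.11 in DZ_high and 7.12, 6.82 and 7.22 in DZ_low arrays. The LZ_high arrays of sets 1 and 3 and the LZ_low array of set 3 were above all DZ arrays, and the other 3 LZ arrays overlapped the DZ range. Kif1c, a vesicle motor, had a difference of 0.20 ± 0.15. Kif2a, which takes microtubules apart at spindle poles and in interphase cells, had -0.29 ± 0.27. The kinesin-2 subunits Kif3a and Kif3b, which form 1 motor with the adaptor encoded by Kifap3, had -0.27 ± 0.18 and -0.23 ± 0.14, and Kifap3 itself had -0.52 ± 0.21 (limma adjusted p = 0.583, and 0.0444 with array weights). Kif5b, the widely expressed heavy chain of conventional kinesin, had -0.19 ± 0.59. Kif21b averaged 7.02 in LZ and 7.20 in DZ arrays. Kif6, Kif12 and Kifc3 had the lowest mean levels of the tested kinesins. They averaged 5.55, 5.59 and 5.72 in LZ arrays and 5.65, 5.67 and 5.73 in DZ arrays.

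Each affinity was also taken on its own, and whether the zone difference differed between the affinities is tested further on, by the interaction. Among low-affinity cells, 10 of 10 mitotic kinesins were lower in LZ_low than in DZ_low by their means, where 49.5% of all genes were higher. The mitotic median was -0.47, against -0.08 for the other kinesins and -0.0032 for all genes. In 3 of 3 matched sets, 6 of the 10 mitotic and 4 of the 19 other kinesins were lower, as were 16% of all genes. Kif20a differed by -0.99 ± 0.16, Kif2c by -0.85 ± 0.35, Kif23 by -0.77 ± 0.39, Kif20b by -0.61 ± 1.04 and Kif4 by -0.48 ± 0.27 (SE, n = 3 arrays per group). No kinesin passed by limma, where 0.0357% of all genes did. With matched set as a replicate block Kif20a passed (adjusted p = 0.0465, against 0.0901 without the block), where 0.223% of all genes did. At an unadjusted p under 0.05, 2 mitotic kinesins (Kif20a and Kif2c) and 1 other kinesin (Kif3a) were lower in LZ_low, where 4.69% of all genes passed. With the block these counts were 4 mitotic and 1 other kinesin, where 7.73% of all genes passed. Kif3a was 6.26, 5.92 and 6.06 in LZ_low against 6.97, 6.31 and 6.74 in DZ_low arrays. Its difference was -0.59 ± 0.25 (limma adjusted p = 0.978).

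Among high-affinity cells the mitotic kinesins pointed both ways, 4 above and 6 below 0, with a median of -0.07. The median was -0.15 for the other kinesins, of which 13 of 19 lay below 0, where 48.9% of all genes lay above 0. The mitotic median turned to 0.25 without LZ_high replicate 3, 0.15 without DZ_high replicate 2 and 0.04 without matched set 3. Kif2c had the most negative difference, -0.89 ± 0.35, and it was -1.88 in set 3, -0.61 in set 2 and -0.19 in set 1. Kif20a had -0.49 ± 0.16 and was lower in LZ_high than in DZ_high in 3 of 3 sets, as were 11.5% of all genes. Kif11, Kif18a and Kif20b were higher in LZ_high in 3 of 3 sets, as were 13.9% of all genes. The differences of these kinesins were 0.21 ± 0.33, 0.44 ± 0.71 and 0.50 ± 1.04. No kinesin passed by limma, where 0.0357% of all genes did. At an unadjusted p under 0.05, 2 mitotic and 3 other kinesins passed, where 4.53% of all genes did. The 3 were Kif18b at -0.50 ± 0.17, Kif24 at 0.56 ± 0.22 and Kif1c at 0.48 ± 0.21. The standard errors given for each affinity include the differences between matched sets. With the replicate block, 1 mitotic kinesin was higher and 2 were lower at an unadjusted p under 0.05. Of the other kinesins 2 were higher and 1 was lower, where 8.09% of all genes passed in either direction.

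High- and low-affinity cells of the light zone were then compared. The mean of each of the 10 mitotic kinesins was higher in LZ_high than in LZ_low, while the other kinesins were divided, 8 higher and 11 lower. The share of all genes above 0 was 49.7%. The median difference was 0.38 for mitotic kinesins, -0.05 for other kinesins and -0.0021 for all genes. By matched set, the mitotic median was 0.63 in set 1, 0.43 in set 2 and -0.14 in set 3. Over the fits that each left out 1 array it was between 0.09 (without LZ_high replicate 2) and 0.71 (without LZ_high replicate 3). It was 0.15 without LZ_low replicate 3, 0.20 without LZ_high replicate 1 and 0.56 without all of matched set 3.

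No kinesin and no other gene passed by limma in this comparison (0% called), and 4.16% of all genes had an unadjusted p under 0.05. Among the kinesins Kif20a alone was under that limit, at 0.55 ± 0.16 (SE, n = 3 arrays per group; limma adjusted p = 0.999). Its 3 LZ_high values were 8.04, 8.21 and 7.82, and its 3 LZ_low values were 7.44, 7.57 and 7.40. With array weights the difference was 0.70 and passed (adjusted p = 0.0278), but the share of all genes passing with these weights is not given here. Kif11, Kif18a, Kif20a, Kif20b and Kif23 were higher in LZ_high in 3 of 3 sets, which is 5 of 10 mitotic kinesins. The same held for 1 of 19 other kinesins, Kif24, and for 15.1% of all genes. With the replicate block 4 of the 10 mitotic kinesins (Kif11, Kif18a, Kif20a and Kif20b) had an unadjusted p under 0.05, as did 7.95% of all genes, and no gene passed. Kif11 was 10.26, 10.25 and 9.28 in LZ_high against 9.63, 9.89 and 9.15 in LZ_low arrays, with a difference of 0.37 ± 0.33. Kif18a was 7.52, 7.41 and 5.31 in LZ_high against 6.40, 6.85 and 4.97 in LZ_low arrays, with a difference of 0.67 ± 0.71. In both genes the spread between sets was larger than the difference, and LZ_high of set 3 lay below LZ_low of sets 1 and 2. The lowest of the other kinesins was Kif13b, a motor for membrane cargo, at -0.48 ± 0.23. Its values were 6.46, 6.05 and 5.40 in LZ_high and 6.45, 6.39 and 6.51 in LZ_low arrays, and the difference was 0.0067 in set 1, -0.34 in set 2 and -1.12 in set 3.

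In the dark zone, high- and low-affinity cells showed no common direction. Of the mitotic kinesins 4 were higher and 6 lower in DZ_high than in DZ_low, with a median of -0.08, and of the other kinesins 8 were higher and 11 lower, with a median of -0.09. Of all genes, 50.4% were higher. The mitotic median was above 0 without DZ_high replicate 3 (0.24), DZ_low replicate 1 (0.0219) or matched set 3 (0.0720) and with array weights (0.11), and lower without DZ_high replicate 2 (-0.29) or DZ_low replicate 3 (-0.16). Kif2c had 0.44 ± 0.35 and Kif22 0.32 ± 0.21, while Kif20b had -0.60 ± 1.04 and Kif15 -0.32 ± 0.76. Kif20a had 0.05 ± 0.16. Kif1c, at -0.56 ± 0.21, was the only kinesin with an unadjusted p under 0.05, where 2.2% of all genes passed. It was 8.82, 8.98 and 8.46 in DZ_high against 9.05, 9.42 and 9.46 in DZ_low arrays. With the replicate block, 1 mitotic and 1 other kinesin were lower in DZ_high at an unadjusted p under 0.05, where 5.33% of all genes passed. No kinesin and no other gene passed by limma (0% called; adjusted p = 1.00 for Kif1c).

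The test of whether the affinity difference differed between the zones gave no call either (0% of all genes by limma, and 1.58% at an unadjusted p under 0.05). The median of this interaction, LZ difference minus DZ difference, was 0.49 for the mitotic kinesins, 8 of them above 0, and -0.03 for the other kinesins, 8 of 19 above 0. Of all genes, 49.4% lay above 0. The mitotic median was 0.19 without DZ_high replicate 3, 0.25 without LZ_low replicate 3, and 0.29, 0.30 and 0.74 when replicate 1, 2 or 3 of LZ_high was left out. Kif20a had 0.50 ± 0.22 and was the only kinesin with an unadjusted p under 0.05. Kif20b had the highest value of the mitotic kinesins, 1.12. Kif18a had 0.91 ± 1.01, Kif15 0.72 ± 1.08 and Kif23 0.59 ± 0.55, each above 0 in 3 of 3 sets. In all, 6 of 10 mitotic and 3 of 19 other kinesins were above 0 in 3 of 3 sets, as were 12.5% of all genes. With the replicate block Kif18a, Kif20a and Kif20b had an unadjusted p under 0.05, as did 3.64% of all genes, and no gene passed.

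Ordering the 4 groups by their means put LZ_low lowest for 10 of 10 mitotic kinesins. The same was true of 6 of 19 other kinesins and 27.1% of all genes. This order contains the counts given above for LZ_low below DZ_low and below LZ_high. All of them rest on the same 3 LZ_low arrays. The highest group varied: LZ_high for 3, DZ_high for 4 and DZ_low for 3 of the mitotic kinesins. Within matched sets, LZ_low was lowest for 8 of 10 mitotic kinesins in set 1, where 20.2% of all genes had it lowest. It was lowest for 6 of 10 in set 2, against 22.1% of all genes, and for 4 of 10 in set 3, against 23.6%. Without matched set 3 it was lowest for 10 of 10. Leaving out 1 array at a time, the count fell to 5 without DZ_high replicate 2, 6 without LZ_low replicate 3 and 7 without LZ_high replicate 2, and was 8 to 10 in the other fits. How often neighbouring groups in this order differed beyond their spread was not counted, and Kif20a and Kif4 are given as examples. By limma without array weights, no kinesin passed for affinity within either zone. Kif20a averaged 8.02 ± 0.19 in LZ_high, 7.47 ± 0.09 in LZ_low, 8.51 ± 0.14 in DZ_high and 8.46 ± 0.18 in DZ_low (SD, n = 3), and the 2 DZ groups overlapped. Kif4 averaged 9.11 ± 0.53 in LZ_high, 8.79 ± 0.10 in LZ_low, 9.21 ± 0.40 in DZ_high and 9.28 ± 0.22 in DZ_low, and LZ_high spanned the whole range of LZ_low and more.

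**Figure D3:**
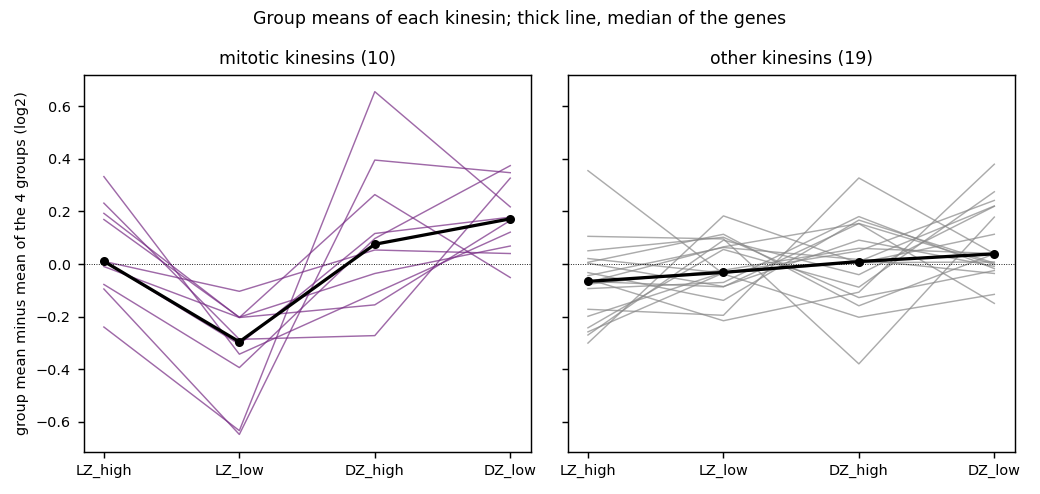
Group mean of each tested kinesin minus its mean over the 4 groups (log2), with groups in the order LZ_high, LZ_low, DZ_high, DZ_low; thin lines are genes and the thick line their median, for 10 mitotic kinesins on the left and 19 other kinesins on the right. All 10 mitotic lines have their lowest point at LZ_low, which 6 of the 19 other kinesins do.

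Many of the mitotic kinesins share a short promoter motif that their choice did not use. TTTGAA is a form of the cell cycle gene homology region, an element known to be bound by the DREAM complex. The CCAAT box is known to be bound by NF-Y. Both were searched on either strand, so that TTCAAA also counts as a match of the first motif. In the same way, ATTGG counts as a match of the CCAAT box. RefSeq promoters of the GRCm38.p6 build, 250 bases before to 50 after the gene's start, were searched for 9 of 10 mitotic and 22 of 30 other kinesins, and that of Kif20a was not analysed here. TTTGAA was present in 8 of 9 mitotic (not in Kif18a) and 3 of 22 other kinesin promoters, and in 11.8% of the promoters of tested genes and 18.1% of all 27025 promoters. The 3 others were Kif18b, Kif26b and Kif27. Between 80 bases before and 26 after the start it was present in 6 of 9 mitotic and 3 of 22 other kinesins, 3.18% of tested genes and 5.53% of all promoters. CCAAT was present in 5 of 9 mitotic and 9 of 22 other kinesins, and in 38.5% of the promoters of tested genes and 37.9% of all promoters. The E2F motifs TTTCGCGC and TTTGGCGC, on either strand, were present in 2 of 9 mitotic kinesins (Kif15 and Kif18a) and 0 of 22 other kinesins. They were present in 1.65% of the promoters of tested genes and 0.833% of all promoters. In Kif15 the E2F match ends where its TTCAAA match begins. A match is only a run of letters and does not show that a factor binds there.

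The window from 80 bases before to 26 after the start is printed below for 5 mitotic kinesins with TTTGAA close to the start, for Kif18b, one of the 3 kinesins outside the mitotic list that also have it there, and for Kif2a, a relative of Kif2c with neither motif in this window. Sequences are from RefSeq (GRCm38.p6) and run 5′ to 3′ on the gene's strand, and capitals mark TTTGAA and CCAAT on either strand.
Kif4 (chrX:100625985-100626090, plus strand): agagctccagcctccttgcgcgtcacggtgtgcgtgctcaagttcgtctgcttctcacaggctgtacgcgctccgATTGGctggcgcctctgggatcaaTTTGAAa
Kif11 (chr19:37376302-37376407, plus strand): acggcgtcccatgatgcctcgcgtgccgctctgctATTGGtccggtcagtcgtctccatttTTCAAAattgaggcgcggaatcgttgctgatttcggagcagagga
Kif15 (chr9:122951001-122951106, plus strand): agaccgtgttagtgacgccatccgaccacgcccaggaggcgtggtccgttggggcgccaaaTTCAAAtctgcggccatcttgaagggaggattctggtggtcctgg
Kif22 (chr7:127042395-127042500, minus strand): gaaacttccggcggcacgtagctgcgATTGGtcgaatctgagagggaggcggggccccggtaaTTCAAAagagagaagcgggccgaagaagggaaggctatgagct
Kif23 (chr9:61946774-61946879, minus strand): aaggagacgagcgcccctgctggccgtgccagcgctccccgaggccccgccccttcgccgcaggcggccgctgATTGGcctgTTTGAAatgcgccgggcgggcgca
Kif18b (chr11:102925099-102925204, minus strand): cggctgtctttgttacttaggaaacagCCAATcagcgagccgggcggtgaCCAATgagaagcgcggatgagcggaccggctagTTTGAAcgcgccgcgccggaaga
Kif2a (chr13:107022330-107022435, minus strand): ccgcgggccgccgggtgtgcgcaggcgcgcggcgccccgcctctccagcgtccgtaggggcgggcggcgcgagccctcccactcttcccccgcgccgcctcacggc
In Kif4, Kif11, Kif22 and Kif23 a CCAAT match lies upstream of the TTTGAA match, and Kif18b has 2 CCAAT matches upstream of its own. Kif15 has TTTGAA without CCAAT in this window. The kinesin with the largest standard error in the zone comparison, Kif20b, has TTTGAA beginning at bases 8 and 14 downstream, counting the start as base 1.

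Matched set 3 stood apart in several kinesins, so its size is given here for each. The mean of the 4 arrays of set 3 minus that of the other 8 was -2.53 for Kif20b, -1.74 for Kif15 and -1.66 for Kif18a among the mitotic kinesins. It was -1.84 for Kif5b among the others. Kif20b was 5.69, 5.13, 5.16 and 6.04 in the LZ_high, LZ_low, DZ_high and DZ_low arrays of set 3. In the other 8 arrays it was 8.11 and 8.47 in LZ_high, 7.47 and 8.12 in LZ_low, 7.24 and 8.35 in DZ_high, and 8.11 and 8.40 in DZ_low. Set 3 minus the mean of sets 1 and 2 was between -2.67 and -2.22 in every group. Kif23, Kif11 and Kif2a were lower in set 3 by means of -0.83, -0.74 and -0.73. Kif20a (-0.08), Kif2c (-0.07) and Kif22 (0.13) had set 3 close to the other sets on average, and in Kif24 it was higher (0.37). In all, 3 of 10 mitotic and 1 of 19 other kinesins were below -1, as were 3.89% of all genes. Set 3 was lower in all 4 groups for 6 of 10 mitotic and 4 of 19 other kinesins, and for 15.7% of all genes. The cause was not tested. With matched set as a block, the standard error of the zone difference was 0.13 for Kif20b, against 0.74 without it, and Kif20a was still the only kinesin called in the zone comparison (adjusted p = 0.0133, where 1.2% of all genes were called).

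**Figure D4:**
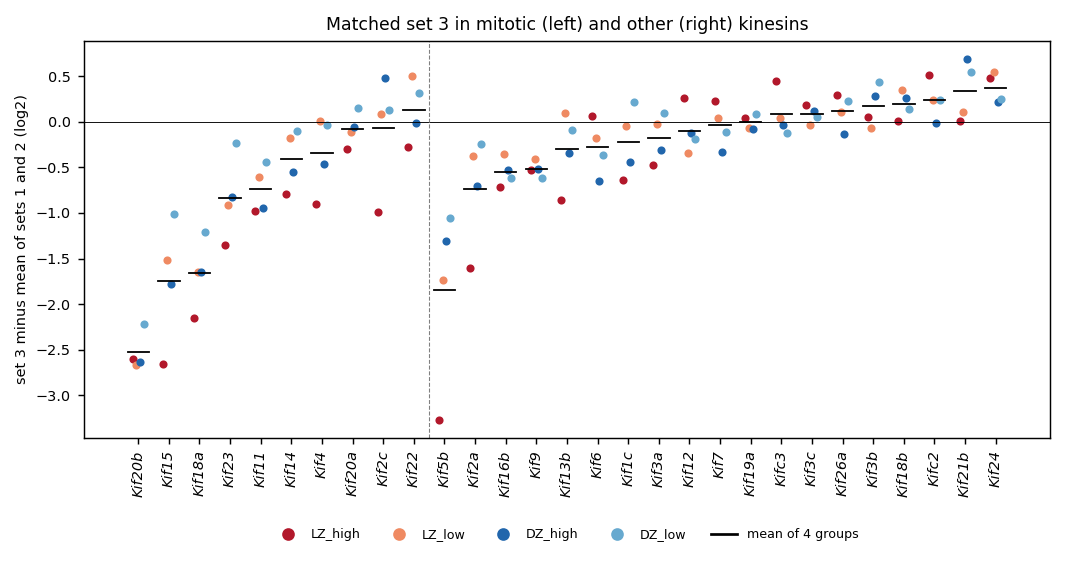
Matched set 3 minus the mean of sets 1 and 2 (log2) in each group for the 29 tested kinesins, mitotic on the left and other on the right of the dashed line, ordered by the mean of the 4 groups (black line). Kif20b, Kif15 and Kif18a on the left and Kif5b on the right lie below -1 on average, while Kif20a, Kif2c and Kif22 lie near 0.

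Genes whose products work with mitotic kinesins were described as a further list. Of a list of 25 such partners, 24 were tested, and 22 of the 24 had a zone difference below 0, with a median of -0.37. Of all genes, 49% had a zone difference above 0. By limma 3 of the 24 were called, all lower in LZ, and 5 with the replicate block, where 0.419% and 1.2% of all genes were. Ccnb2, a mitotic cyclin, fell by 0.87 in LZ cells (limma adjusted p = 0.0234). Cdc20, the activator of the anaphase-promoting complex, fell by 0.92 (adjusted p = 0.0270), and Cdca8, a subunit of the chromosomal passenger complex that Kif20a carries, fell by 0.67 (adjusted p = 0.0453). These 3 calls were lost without matched set 3 (adjusted p = 0.0601, 0.0895 and 0.110). Of the 12 fits that each left out 1 array, the call of Ccnb2 held in 3 (without LZ_high replicate 2 or 3, or DZ_high replicate 1), that of Cdc20 in 4 (the same 3 and without DZ_low replicate 2) and that of Cdca8 in 0. Their differences stayed below 0 throughout. With the replicate block Aurka, a spindle pole kinase, and Cenpf, a kinetochore protein, passed as well (limma adjusted p = 0.0472 and 0.0396), and had differences of -0.65 ± 0.12 and -0.99 ± 0.46. Racgap1, whose product pairs with that of Kif23, had -0.17 ± 0.20, and Prc1, whose product binds those of Kif4 and Kif14, had -0.27 ± 0.24. In the light zone 23 of the 24 were higher at high than at low affinity, with a median of 0.47, where 49.7% of all genes were. There 0 passed by limma, and 7 had an unadjusted p under 0.05, as did 4.16% of all genes. In the dark zone 13 of the 24 were higher at high affinity, with a median of 0.06, where 50.4% of all genes were. LZ_low was the lowest group for 23 of 24 partners (20 to 23 when 1 array was left out), where it was the lowest for 27.1% of all genes. Within matched sets it was the lowest for 23 of 24 in set 1, 20 in set 2 and 15 in set 3. The shares of all genes were 20.2%, 22.1% and 23.6%.

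Other parts of the microtubule transport system showed no call in any of the 6 comparisons by limma, without or with the block. In the zone comparison, Kifap3, Dync1li1, Tubb2a and Tyms had an unadjusted p under 0.05. Kinesin light chains and cargo adaptors (10 tested) had a median zone difference of -0.0071, 5 above and 5 below 0, and Spag9, an adaptor for vesicle transport, had 0.53 ± 0.27. Dynein and dynactin genes (19 tested), which encode the motor that runs the opposite way to most kinesins, had a median of -0.15, with 15 below 0. The lowest p among them was that of Dync1li1 (-0.34 ± 0.16, limma adjusted p = 0.700). Tubulin genes (12 tested) had a median of -0.0003, with Tubb2a at -0.75 ± 0.34 (adjusted p = 0.704). DNA replication genes (17 tested), a list for the phase before mitosis, had a median zone difference of 0.0059. Their median for high minus low affinity was 0.26 in LZ, with 16 of 17 above 0, and 0.37 in DZ, with 17 of 17 above 0. Of all genes, 49.7% were above 0 in LZ and 50.4% in DZ. By matched sets 1 to 3 their median was 0.24, 0.41 and 0.18 in LZ, and 0.09, 0.69 and 0.41 in DZ. In each zone 2 of the 17 had an unadjusted p under 0.05, where 4.16% of all genes did in LZ and 2.2% in DZ. In the same 2 comparisons the mitotic kinesins had 0.38 in LZ and -0.08 in DZ. Tyms, which makes thymidylate for DNA, had 0.73 ± 0.21 in LZ (limma adjusted p = 0.999).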

How the data were processed

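RNA of sorted germinal centre B cells was amplified, labelled with biotin and hybridized to one-colour arrays (12 in all, 3 per group). The deposited values are log2 expression values per probe set (28853 probe sets). RMA and the mouse build mm8 are the only names in the submitters' processing notes, and log2 was inferred from the range of the deposited values (1.99 to 13.74). No depth applies to arrays, and the number of arrays limits the precision. Symbols came from the platform annotation: 21789 probe sets had 1 symbol, 1621 several and 5443 none. All 40 kinesins matched RefSeq by gene ID.

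Genes reaching the array's median (percentile 50) on at least 3 arrays were fitted together with limma 3.58.1 (R 4.3.3) as 4 groups with 6 contrasts, and p-values were adjusted by Benjamini-Hochberg over all 11206 genes. The fit was tested on simulated data with independent noise and no matched sets, so that test does not cover differences between sets. No set test was run: lists are described by counts and medians. The members, lists and comparisons were chosen with earlier results of these data known. The text names all mitotic kinesins, other kinesins called or among the 3 with the largest difference in a contrast or at either end of the mean level, and companions called or with the smallest p. Racgap1, Prc1 and Kif26a fall outside that rule and were chosen after their values were seen.

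The date-like suffix that sample descriptions share was taken to mark a common batch or day and gave the replicate numbers. With group means removed, 17 of 18 same-set pairs correlated above 0.1 across genes (median 0.41, lowest -0.07); for 11 of 12 arrays the best correlation was with their own set. Alternatives were this replicate block (fixed or random), filters, normalization, array weights, moderated variance, the mean of probe sets, and leaving out arrays. A block fit without LZ_high replicate 3 was added after seeing the data. Protein sequences were not used here.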

Additional observations from a re-analysis of the deposited data

Results flagged for a closer look

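In 3 kinesins, differences pointed opposite ways in every matched set. LZ minus DZ was above 0 at high affinity and below 0 at low affinity in 3 of 3 sets for Kif11, and the 2 differences were 0.48 apart (0.21 at high and -0.27 at low affinity). The same held for Kif20b, which gave 0.50 at high and -0.61 at low affinity, 1.12 apart. For Kif20b, high minus low affinity was also above 0 in LZ (0.52) and below 0 in DZ (-0.60) in 3 of 3 sets, by the same 1.12. For Kif26a it was below 0 in LZ (-0.13) and above 0 in DZ (0.30) in 3 of 3 sets, a difference of -0.44. The interaction itself was tested with limma and passed for none of the 3 (adjusted p = 1, and 1.00 with the replicate block). Such opposite signs in every set occurred in 2.12% of all genes tested for the zone difference and in 1.60% for the affinity difference.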

How the results depend on the processing

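The direction of no called kinesin turned under any alternative. For single named kinesins, 3197 alternative values kept their side of the threshold, 9 newly passed and 8 no longer did, all of Kif20a, Kif18b or Kif1c. Of the 3197 values, 260 changed sign, so directions that were not called were not all stable. Of the partners and other companions named in the report and of Kif26a, 622 values kept their side, 11 newly passed and 49 no longer did, and 0 turned while called. Of the 622 values, 24 changed sign. Array weights called Ccnb2 (0.0280), Cdc20 (0.0254) and Cdca8 (0.0318) as higher in LZ_high than in LZ_low (adjusted p in brackets). The share of all genes called with these weights is not given here. The mitotic medians moved by less than the spread between matched sets in every alternative except 3 that left out 1 array.

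Kinesins called in LZ minus DZ at low affinity, 0 by limma without a block, were 1 (Kif20a) with the replicate block, the random block, quantile normalization, array weights and the block without LZ_high replicate 3. Kinesins called in the mean of both affinities were 2 with array weights (Kif20a and Kif18b) and 0 without matched set 3, with or without the block. Array weights also called 2 at high affinity (Kif18b, adjusted p = 0.0385, and Kif1c, 0.0402) and 1 for high minus low affinity in LZ (Kif20a). The share of all genes called with array weights, the random block or quantile normalization is not given here. Whether calls became more frequent among all genes under these alternatives therefore cannot be read from these counts. The replicate block changed no other call of a kinesin.

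The median of the other kinesins is small and followed the filter, since the number tested changed. Without a filter it was -0.0489 for the zone mean, -0.0646 for the zone at high affinity, 0.0218 for affinity in LZ and 0.0238 for affinity in DZ. At percentile 75 it was -0.21 for the zone mean, -0.23 for the zone at low affinity, -0.20 for affinity in DZ and 0.0544 for the interaction. Array weights gave -0.0080 for the zone at low affinity, 0.0118 for affinity in LZ, 0.0515 for affinity in DZ and -0.0785 for the interaction. For affinity in DZ, quantile normalization gave -0.0273 and leaving out matched set 3, with or without the block, gave -0.034. The block without LZ_high replicate 3 gave -0.10 for the interaction. The cause of the shifts with array weights, quantile normalization and fewer arrays was not tested.

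Leaving out 1 array at a time, kinesins called in the zone mean ranged from 0 to 1. The mitotic median ranged from -0.34 to -0.0527 for the zone mean, -0.27 to 0.25 for the zone at high affinity and -0.83 to -0.20 at low affinity, and from 0.0893 to 0.71 for affinity in LZ, -0.29 to 0.24 for affinity in DZ and 0.19 to 0.74 for the interaction. The median of other kinesins ranged from -0.17 to -0.0277 for the zone mean, -0.17 to -0.0674 at high affinity and -0.17 to 0.0288 at low affinity. It ranged from -0.10 to 0.0094 for affinity in LZ, -0.11 to 0.0430 for affinity in DZ and -0.12 to 0.0606 for the interaction. The precision is limited by 3 arrays a group.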
